A study of Mus musculus with 10 samples.

Results

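The 10 genes described here are imprinted growth genes: Igf2, H19, Dlk1, Meg3, Cdkn1c, Peg3, Plagl1, Grb10, Mest and Igf2r. They are 10 of the 35375 features counted in neonatal mouse thymus, and all 10 were among the 19511 features that passed the filter on low counts. The genes were chosen by name as a network around Igf2, with earlier results of these data known. Igf2 itself was selected on its large rise in homozygous knock-out thymus. Its values against that group are therefore given as a description without a test, and counts of changed genes cover the other 9.

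Total RNA came from thymus of C57BL/6J mice 3 days after birth, and ribosomal RNA was removed before stranded sequencing. Usp7, the gene of a deubiquitylating enzyme, was knocked out in the hematopoietic system on both alleles in 3 libraries (homozygous KO) and on a single allele in 3 libraries (heterozygous KO). The 4 wild-type libraries include 2 with Cre induction and 2 without, and the labels do not say which are which. In the count table, the column names of wild types 3 and 4 hold the word het after wt, and those of wild types 1 and 2 hold wt in both places; the sample titles place all 4 in the wild-type group. The promoter that drives Cre is not given, and non-hematopoietic cells of the thymus are outside the labelled deletion. Usp7 itself was measured at 303 to 422 CPM (counts scaled to library size) in homozygous KO, 472 to 516 CPM in heterozygous KO and 589 to 676 CPM in wild type. It was lower in homozygous KO than in wild type by a log2 fold change of -0.74 (SE 0.11, adjusted p = 5.2e-04). Its transcripts were thus still counted in every homozygous KO library, in whole thymus that also holds cells outside the labelled deletion.

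Imprinted genes are transcribed mainly from the allele of a single parent, a choice set by control regions whose CpG dinucleotides are methylated on the allele of a single parent. Igf2 encodes insulin-like growth factor 2, a fetal growth factor, and lies next to H19, a non-coding RNA transcribed from the other parental allele under the same imprinting control region. Igf2r encodes the receptor that clears IGF2, Grb10 an adaptor that restrains insulin and IGF1 receptor signalling, and Cdkn1c a cyclin-dependent kinase inhibitor. Plagl1 and Peg3 encode zinc-finger proteins. These genes are active in the fetus and most decline after birth.

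In the GRCm38 annotation, Igf2 (ENSMUSG00000048583) lies at chr7:142650766-142666816 on the minus strand, with 72.6 kb between it and H19 (ENSMUSG00000000031) at chr7:142575529-142578143. Cdkn1c lies on the far side of Igf2, 880.2 kb from H19, at chr7:143458339-143461050, and Peg3 at chr7:6703892-6730431. Dlk1 at chr12:109452823-109463336 and Meg3 at chr12:109541001-109571726 are 77.7 kb apart. Plagl1 is at chr10:13060504-13131694, Grb10 at chr11:11930508-12038683, Mest at chr6:30723547-30748465 and Igf2r at chr17:12682406-12769664. Other annotated genes overlap 7 members, among them Igf2os antisense to Igf2, Airn antisense to Igf2r, Copg2 antisense to Mest and Gm44732 antisense to Cdkn1c.

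The promoters of the 3 members with the widest spread between groups are shown with their CpG dinucleotides, at which DNA can be methylated. Imprinting of Igf2 is set at the control region near H19, outside the window shown. The windows are RefSeq promoters of GRCm38.p6 on the gene's own strand, from 250 bases before to 50 bases after the start, and capitals mark CpG dinucleotides. RefSeq gave 15 windows for 8 of the 10 members, and had none for H19 or Cdkn1c.
Igf2, chr7:142658755-142659054, minus strand: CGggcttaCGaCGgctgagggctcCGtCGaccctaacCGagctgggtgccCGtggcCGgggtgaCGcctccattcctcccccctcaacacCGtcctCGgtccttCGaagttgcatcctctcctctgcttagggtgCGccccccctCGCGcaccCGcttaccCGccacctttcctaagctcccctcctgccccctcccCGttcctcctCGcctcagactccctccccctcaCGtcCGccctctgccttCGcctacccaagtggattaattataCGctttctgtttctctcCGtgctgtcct
Plagl1, chr10:13090582-13090881, plus strand: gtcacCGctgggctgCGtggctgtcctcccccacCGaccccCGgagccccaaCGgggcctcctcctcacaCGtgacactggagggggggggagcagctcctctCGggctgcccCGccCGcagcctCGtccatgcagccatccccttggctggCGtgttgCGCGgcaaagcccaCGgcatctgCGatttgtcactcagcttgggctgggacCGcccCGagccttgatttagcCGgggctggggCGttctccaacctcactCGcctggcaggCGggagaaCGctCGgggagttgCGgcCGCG
Peg3, chr7:6730370-6730669, minus strand: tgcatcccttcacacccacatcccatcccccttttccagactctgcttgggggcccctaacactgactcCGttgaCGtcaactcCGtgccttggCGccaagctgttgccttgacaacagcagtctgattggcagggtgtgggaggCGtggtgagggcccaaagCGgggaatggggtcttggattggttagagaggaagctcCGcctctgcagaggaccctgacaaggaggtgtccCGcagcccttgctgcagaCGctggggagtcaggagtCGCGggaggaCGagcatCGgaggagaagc
The Igf2 window holds 24 CpG and is 64.7% G or C, the Plagl1 window holds 26 CpG and is 70.7% G or C, and the Peg3 window holds 13 CpG and is 61.3% G or C. The median over all 32817 RefSeq windows was 7 CpG and 52.7% G or C. Igf2 has 4 windows, which hold 2 to 24 CpG, and counts per gene cannot say which start was used. The letters GGGGCCCC, a palindrome that reads the same on both strands and is a reported binding sequence of the Plagl1 protein, occur in the Peg3 window, starting 201 bases before the gene start. They occur in 1 of the 15 member windows and in 1.07% of all windows. Methylation was not measured.

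In wild-type thymus, the levels of the 10 genes per kilobase of exon spanned from H19, at 37.7 ± 7.35 CPM per kb (SD, n = 4), to Meg3, at 0.0025 ± 0.0030 CPM per kb. Igf2r followed H19 at 27.2 ± 0.615 CPM per kb, and Cdkn1c at 13.7 ± 0.738 CPM per kb. Mest was at 0.835 ± 0.206, Igf2 at 0.359 ± 0.135, Plagl1 at 0.239 ± 0.062, Grb10 at 0.200 ± 0.057, Dlk1 at 0.0636 ± 0.0196 and Peg3 at 0.0385 ± 0.0207 CPM per kb. Of neighbours in this order, Igf2 and Plagl1, Plagl1 and Grb10, and Dlk1 and Peg3 did not differ beyond their SDs. Meg3 was counted with 0 to 11 reads per wild-type library, against 4156 to 9110 reads for H19.

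Libraries held 39833850 to 122380785 counts, so 3 counts corresponded to 0.0260 to 0.0737 CPM. Xist was above 100 CPM in homozygous KO 3 and wild types 2, 3 and 4, and Ddx3y was at 70.4 to 102 CPM in the others, so homozygous KO and wild type held both sexes and heterozygous KO did not. The numbers in the sample names fall into a range of 44 to 51 (homozygous KO 1, heterozygous KO 1 and wild types 1 to 3) and a range of 56 to 63 (the other libraries), and differences within each range (log2 CPM, without a test) are given for the called members and for those whose sign turned between the ranges. Thymocyte markers summed to 11545 to 11836 CPM in homozygous KO, 12905 to 13731 CPM in heterozygous KO and 13012 to 14716 CPM in wild type. Rag1 was the largest part of each sum, at a mean of 3491 CPM in homozygous KO and 6300 CPM in wild type. Cd8a went the other way, at a mean of 1511 CPM against 1260 CPM. Of the 10 thymocyte markers, 5 had a higher and 5 a lower estimate in homozygous KO than in wild type. Between these groups 4 of the 10 were called, 2 in each direction, beside 25.8% of all features. In bulk tissue, fewer cells of a type and less RNA per cell cannot be told apart.

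Against wild type, homozygous KO thymus differed in 6 of the 9 members tested: H19, Peg3, Grb10 and Igf2r rose, Cdkn1c and Plagl1 fell, and Dlk1, Meg3 and Mest did not pass the test. A gene is called at an adjusted p under 0.05 (edgeR quasi-likelihood test, Benjamini-Hochberg over all 19511 features). Of all features, 25.8% were called in this comparison, 12.5% higher and 13.2% lower. The median log2 fold change was 0.33 over the 9 members and -0.01 over all features. The members were chosen with earlier results of these data known, so their count and median beside all features are a description only. The plot of member levels by library shows the values behind these calls.

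**Figure D1:**
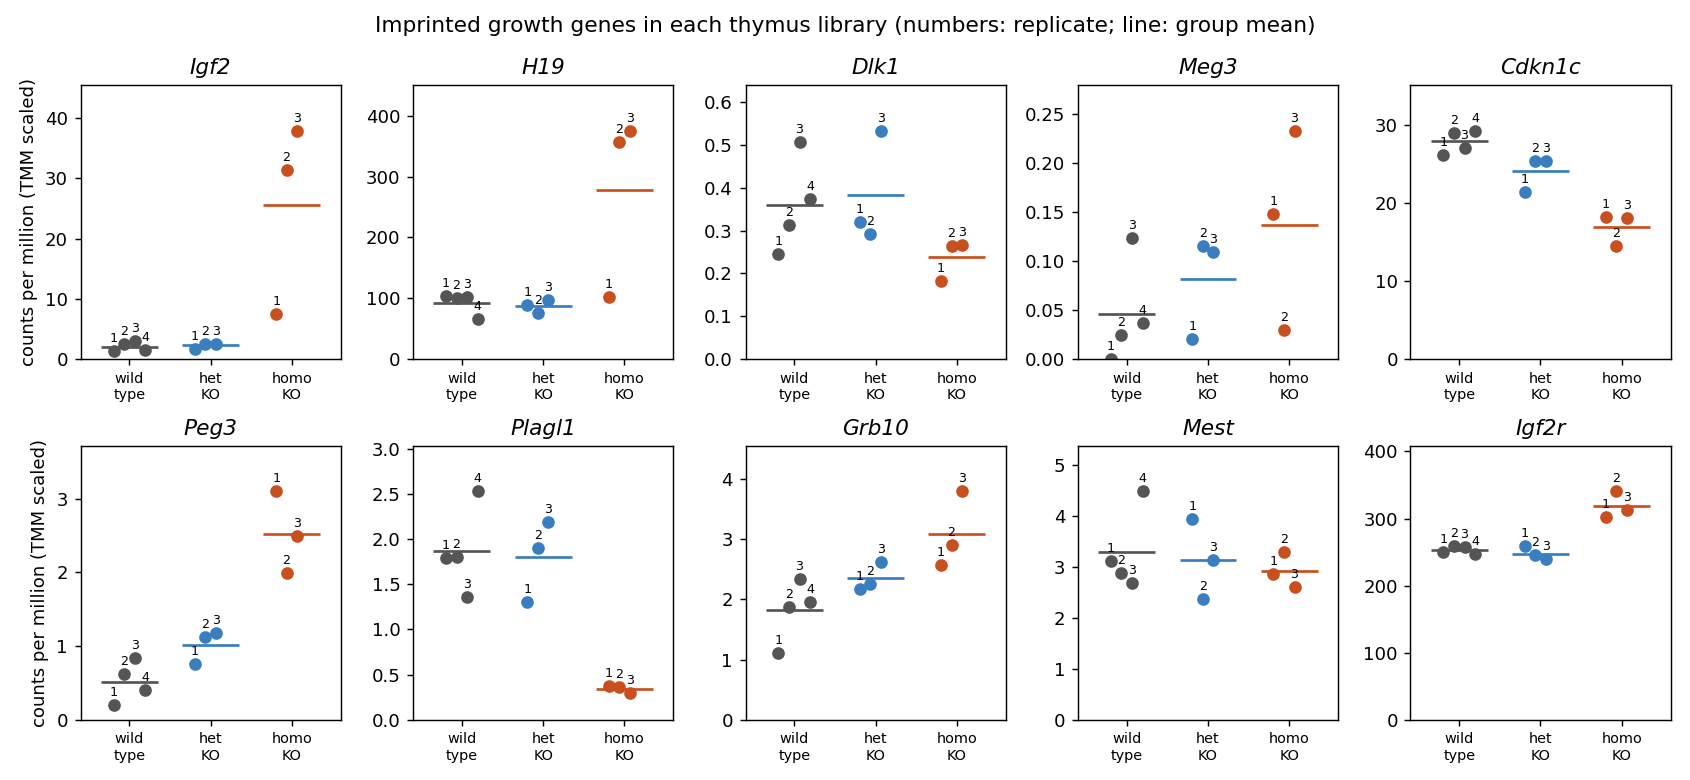
TMM-scaled CPM (y axis, linear from 0) of the 10 imprinted growth genes in each of the 10 thymus libraries, by group (x axis); points are libraries numbered by replicate and lines are group means. Plagl1 was at 0.30 to 0.37 CPM in homozygous KO against 1.36 to 2.53 CPM in wild type, while Igf2 and H19 were highest in homozygous KO 2 and 3.

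Igf2 was at 7.53, 31.4 and 37.9 CPM in homozygous KO 1, 2 and 3, from 868 to 3421 reads. It was at 1.73, 2.50 and 2.52 CPM in heterozygous KO and at 1.35, 2.43, 2.96 and 1.49 CPM in wild type. Every homozygous KO library was above every library of the other groups, and homozygous KO 1 was well below the other two. The fitted difference of homozygous KO from wild type was 3.63 on the log2 scale (SE 0.47), 12.3-fold, and that from heterozygous KO was 3.51 (SE 0.52), 11.4-fold. Among samples numbered 44 to 51 these differences were 1.81 and 2.11, and among those numbered 56 to 63 they were 4.51 and 3.77. Igf2os, annotated antisense within Igf2, was at 0.26, 0.88 and 0.85 CPM in homozygous KO, 0.07 to 0.23 CPM in heterozygous KO and 0.02 to 0.28 CPM in wild type. It was called higher against wild type (2.20, SE 0.64, adjusted p = 0.0261) although the groups overlapped, and not against heterozygous KO (2.06, SE 0.68, adjusted p = 0.0602).

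H19 was at 102, 357 and 376 CPM in homozygous KO 1, 2 and 3. It was at 89.1, 75.7 and 97.5 CPM in heterozygous KO and at 102.9, 100.03, 102.5 and 65.7 CPM in wild type. Homozygous KO 2 and 3 stood above all other libraries, as they did for Igf2, and homozygous KO 1 lay within the wild-type range. The difference from wild type was 1.59 on the log2 scale (SE 0.34, adjusted p = 0.00629), a 3.00-fold higher level. Among samples numbered 44 to 51 it was 0.01, and among those numbered 56 to 63 it was 2.48, so that the rise did not hold within the lower range, which has a single homozygous KO library. With wild types 1 and 2 alone as controls the adjusted p was 0.0546. Against heterozygous KO, H19 was higher by 1.67 (SE 0.38, adjusted p = 0.0110), with 0.20 within the lower range, from a single library of each group, and 2.09 within the upper range. Mir675, annotated on the same strand with 84 bases inside H19 exons, had 0 counts in every library. The handling of reads shared by 2 genes is not given, so this cannot be read as absence of its RNA.

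Peg3 was at 3.10, 1.99 and 2.49 CPM in homozygous KO. It was at 0.75, 1.12 and 1.18 CPM in heterozygous KO and at 0.20, 0.63, 0.83 and 0.40 CPM in wild type. Homozygous KO 1, the lowest of its group for Igf2, was the highest for Peg3, and no homozygous KO library overlapped the other groups. Peg3 rose by 2.27 on the log2 scale against wild type (SE 0.38, adjusted p = 0.00135), 4.81-fold. Within the sample-number ranges the difference was 2.65 and 2.41.

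Plagl1 was at 0.37, 0.36 and 0.30 CPM in homozygous KO, from 27 to 43 reads. It was at 1.30, 1.91 and 2.19 CPM in heterozygous KO and at 1.79, 1.81, 1.36 and 2.53 CPM in wild type. All 3 homozygous KO libraries were below every other library. The log2 fold change was -2.43 against wild type (SE 0.28, adjusted p = 1.3e-04) and -2.37 against heterozygous KO (SE 0.29, adjusted p = 2.7e-04). Within the lower and upper sample-number ranges it was -2.07 and -2.85 against wild type, and -1.74 and -2.55 against heterozygous KO.

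Cdkn1c was at 18.3, 14.5 and 18.1 CPM in homozygous KO. It was at 21.4, 25.4 and 25.5 CPM in heterozygous KO and at 26.2, 29.1, 27.1 and 29.3 CPM in wild type. The 3 groups did not overlap, with heterozygous KO in between. The log2 fold change of homozygous KO was -0.72 against wild type (SE 0.10, adjusted p = 4.4e-04) and -0.50 against heterozygous KO (SE 0.11, adjusted p = 0.00731). Within the ranges it was -0.58 and -0.85 against wild type, and -0.23 and -0.65 against heterozygous KO.

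Of the members that act on IGF signalling, Igf2r was at 303, 341 and 313 CPM in homozygous KO. It was at 258, 246 and 239 CPM in heterozygous KO and at 250.7, 259, 257 and 247 CPM in wild type. Homozygous KO lay above both other groups, by 0.33 on the log2 scale against wild type (SE 0.05, adjusted p = 9.6e-04) and by 0.36 against heterozygous KO (SE 0.06, adjusted p = 0.00121). Within the ranges Igf2r was higher by 0.24 and 0.41 than in wild type, and by 0.23 and 0.43 than in heterozygous KO. Airn, the RNA antisense to Igf2r, was at a mean of 11.3 CPM in homozygous KO and 13.2 CPM in wild type and was not called (-0.22, SE 0.20, adjusted p = 0.457). Grb10 was at 2.57, 2.90 and 3.79 CPM in homozygous KO, 2.17, 2.26 and 2.62 CPM in heterozygous KO and 1.10, 1.88, 2.34 and 1.96 CPM in wild type. Homozygous KO lay above wild type, but homozygous KO 1 overlapped heterozygous KO. Its rise of 0.75 against wild type (SE 0.24, adjusted p = 0.0405) was near the threshold and was lost in 11 of 19 other fits, where the adjusted p reached 0.189. It was lost on leaving out homozygous KO 2 or 3, heterozygous KO 2 or 3, or wild type 1, 2 or 4. Within the ranges the rise of Grb10 was 0.59 and 0.75.

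The Dlk1-Meg3 pair and Mest did not pass the test. Dlk1, a membrane ligand of the Notch family type, was at 0.18 to 0.27 CPM in homozygous KO, 0.29 to 0.53 CPM in heterozygous KO and 0.25 to 0.51 CPM in wild type (-0.63 against wild type, SE 0.36, adjusted p = 0.236). Meg3, a non-coding RNA, had 17, 3 and 21 reads in homozygous KO. It had 2, 11 and 10 reads in heterozygous KO libraries and 0, 1, 11 and 3 reads in wild types. In CPM, Meg3 was at 0.03 to 0.23 in homozygous KO, 0.02 to 0.12 in heterozygous KO and 0 to 0.12 in wild type. Its difference of 1.31 had an SE of 0.88 (adjusted p = 0.312). Mest, a member of the hydrolase fold family, was at 2.60 to 3.30 CPM in homozygous KO and 2.69 to 4.49 CPM in wild type (-0.18, SE 0.23, adjusted p = 0.603).

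Heterozygous KO thymus gave no member past the test against wild type, 0 of 10 by edgeR and 0 of 10 by DESeq2. Of all features, 0.0154% were called, 0.0154% higher and 0% lower. At an unadjusted p under 0.05 there was 1 member, Peg3, whose log2 fold change was 0.95 (SE 0.38, adjusted p = 0.664). Igf2 differed by 0.12 (SE 0.47, adjusted p = 0.975), against the same wild types as the homozygous KO. Cdkn1c was lower in each heterozygous KO library than in each wild type (-0.21, SE 0.10, adjusted p = 0.688). The other differences ran from -0.08 for H19 to 0.57 for Meg3. The sign turned between the lower and the upper range for Igf2 (-0.30 and 0.75), H19 (-0.19 and 0.39), Dlk1 (-0.08 and 0.08), Meg3 (-0.33 and 1.18), Mest (0.44 and -0.71) and Igf2r (0.02 and -0.02).

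Between homozygous and heterozygous KO, 5 of 9 members were called: H19, Peg3 and Igf2r higher and Cdkn1c and Plagl1 lower. Of all features, 17.1% were called, 7.63% higher and 9.5% lower. The homozygous KO libraries are the same as in the comparison with wild type. Peg3 was higher by 1.31 (SE 0.39, adjusted p = 0.0406), a call lost in 8 of 17 other fits, in 6 of them on leaving out homozygous KO 1 or 3, heterozygous KO 1, 2 or 3, or wild type 2 (adjusted p 0.0579 to 0.135). Within the ranges Peg3 was higher by 2.01 and 0.94. Grb10 (0.39, SE 0.26, adjusted p = 0.360), Dlk1 (-0.69, SE 0.38, adjusted p = 0.269), Meg3 (0.74, SE 0.88) and Mest (-0.11, SE 0.24) did not pass. The sign turned between the ranges for Meg3 (1.97 and -0.22) and Mest (-0.46 and 0.10). The plot of fold changes sets the 3 comparisons side by side.

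**Figure D2:**
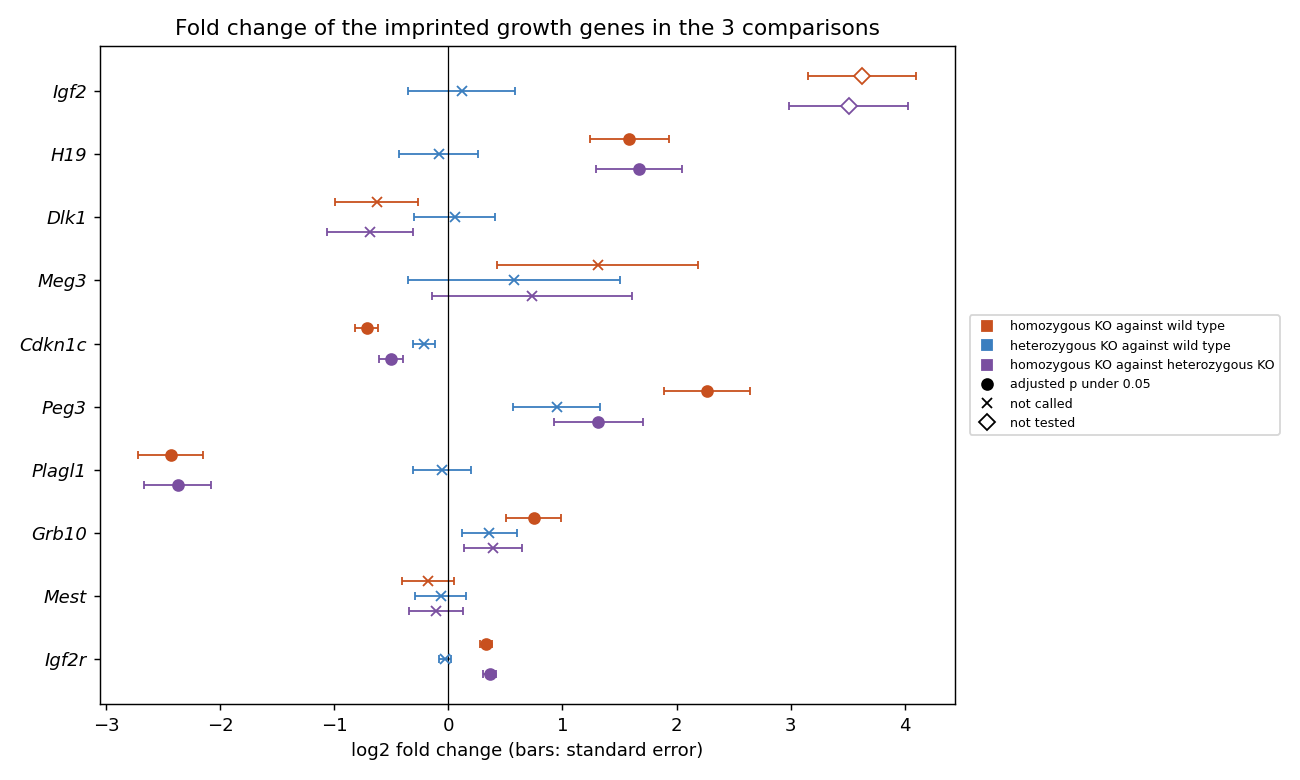
Log2 fold change (x axis, bars are standard errors) of each imprinted growth gene (y axis) in 3 comparisons, from a fit of all 10 libraries; filled circles passed at adjusted p under 0.05, crosses did not, and open diamonds were not tested. Plagl1, at -2.43 and -2.37, fell furthest, while every heterozygous KO estimate is a cross.

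Whole thymus holds stromal and blood cells beside thymocytes, and markers of those cell types were set beside the members. Fibroblast markers summed, without Thy1, to 21.1, 61.8 and 36.1 CPM in homozygous KO 1, 2 and 3, 28.3 to 31.6 CPM in heterozygous KO and 29.5 to 41.0 CPM in wild type. Thy1, which mouse thymocytes also express, was left out after the values were seen, and with it the sums were 1418 to 1610 CPM in homozygous KO, 1155 to 1171 CPM in heterozygous KO and 1042 to 1145 CPM in wild type. Of the 10 fibroblast markers, 7 were called against wild type, beside 25.8% of all features. Col1a1, Col1a2, Col3a1, Col6a1, Lum and Thy1 were higher and Pdgfrb was lower. Lum would not have passed the filter on low counts without homozygous KO. Homozygous KO 1 had the lowest sum without Thy1 and the lowest Igf2 of its group. Homozygous KO 2 had the highest sum and homozygous KO 3 the highest Igf2. Pdgfrb made up most of that sum outside homozygous KO, at 19.4 to 28.6 CPM, against 8.45, 21.1 and 13.2 CPM in homozygous KO. Col3a1 was at 4.48, 14.0 and 8.27 CPM in homozygous KO and 1.74 to 5.78 CPM in the other groups. Of the 10 markers, 9 had a higher and 1 a lower estimate than in wild type.

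Thymic epithelial markers summed to 93.2, 98.3 and 202 CPM in homozygous KO, 92.5 to 183 CPM in heterozygous KO and 95.3 to 148 CPM in wild type, with 4 of 9 called, 2 in each direction. Endothelial markers summed to 155 to 170 CPM, 141 to 150 CPM and 148 to 162 CPM in the same order of groups, with 3 of 10 called, 2 higher and 1 lower. Pecam1 alone, at 132 to 154 CPM, made up most of each sum. Of the 10, 8 had a higher and 2 a lower estimate in homozygous KO than in wild type. Cdh5 was at 1.53, 5.42 and 1.17 CPM in homozygous KO and 1.2 to 1.7 CPM in the other groups. Vwf was at 0.62, 3.64 and 0.71 CPM against 0.12 to 0.48 CPM, and Egfl7 at 1.42 to 1.88 CPM against 2.21 to 2.91 CPM. Myeloid markers summed to 92.1, 374 and 200 CPM in homozygous KO, up to 75.8 CPM in heterozygous KO and 71.7 to 83.3 CPM in wild type, with 8 of 10 called, 5 higher. Erythroid markers summed to 1806, 2026 and 203 CPM in homozygous KO, 181 to 538 CPM in heterozygous KO and 319 to 1691 CPM in wild type, with 2 of 7 tested called, both higher. Pericyte and smooth muscle markers (31.0 to 39.7 CPM in homozygous KO, 32.5 to 40.3 CPM in heterozygous KO, 34.9 to 36.3 CPM in wild type) had 0 of 8 called, with 1 at an unadjusted p under 0.05. Skeletal muscle markers summed to 21.9 to 23.2, 17.0 to 19.1 and 18.7 to 23.2 CPM in that order, with 1 of 4 tested called, and adipocyte markers to 2.44 to 6.90, 3.42 to 4.03 and 3.05 to 4.08 CPM, with 2 of 3 tested called. Lep was the only marker of these lists at 0 in every library. Beside these marker counts, 25.8% of all features were called in homozygous KO against wild type. The part of other cell types in the members' differences was not tested.

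**Figure D3:**
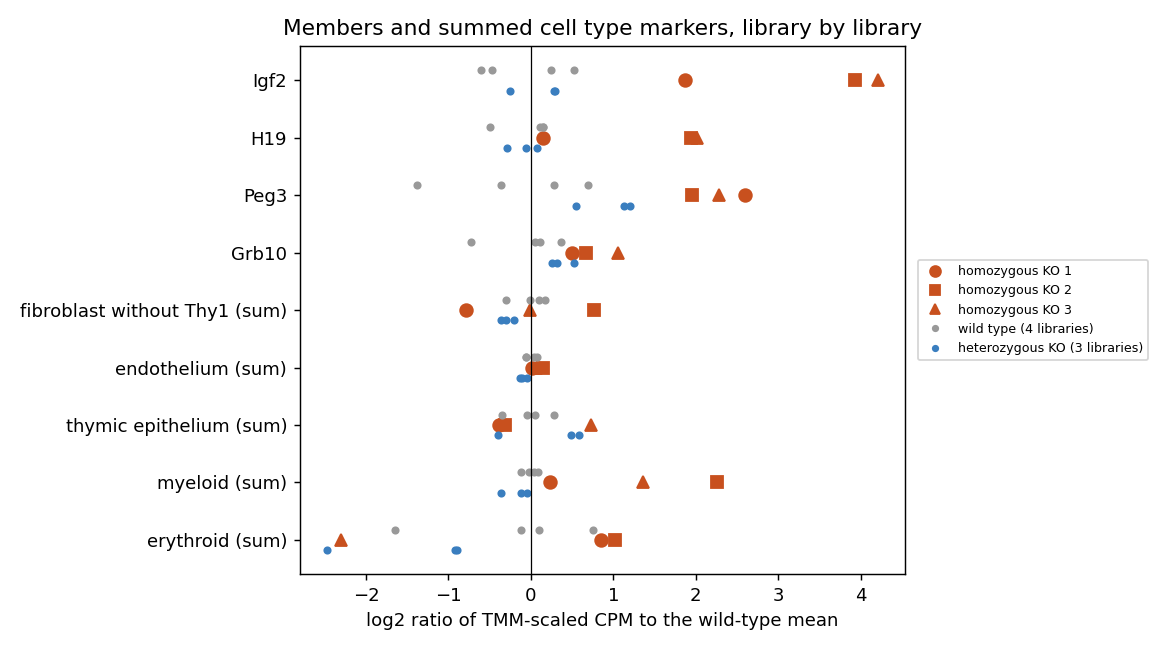
Log2 ratio of TMM-scaled CPM to the wild-type mean (x axis) for 4 imprinted growth genes and 5 summed lists of cell type markers (y axis), with a symbol for each homozygous KO library and dots for the other libraries. Pecam1 makes up most of the endothelial sum, and Pdgfrb most of the fibroblast sum outside homozygous KO. Homozygous KO 1 sits at 1.87 for Igf2 and 0.14 for H19, against 3.93 and 1.94 in homozygous KO 2 and 4.20 and 2.02 in homozygous KO 3.

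The IGF axis around Igf2 was described over 20 further genes, of which 17 passed the filter on low counts. Against wild type, 8 were called in homozygous KO, 5 higher and 3 lower, and the median log2 fold change was 0.43. Of all features, 25.8% were called in this comparison, with a median of -0.01. In heterozygous KO 0 of 17 were called, and 0 had an unadjusted p under 0.05; DESeq2 also called 0. Between homozygous and heterozygous KO, 7 of 17 were called, 4 higher and 3 lower, beside 17.1% of all features. The counts of 8 and 7 and the median of 0.43 include Igfbp2 and Igf2bp1. Both passed the filter on low counts only through homozygous KO, where they were high, so their calls there are no support for a rise. The number called against wild type fell to 3 with wild types 3 and 4 alone, to 4 without homozygous KO 2 and to 5 without wild type 1.

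Igf1r, the signalling receptor of IGF1 and IGF2, was at 11.1, 13.1 and 13.7 CPM in homozygous KO. It was at 51.8, 43.7 and 46.0 CPM in heterozygous KO and at 55.6, 52.5, 45.8 and 50.6 CPM in wild type. Homozygous KO lay below both other groups, which overlapped each other, and its log2 fold change against wild type was -2.02 (SE 0.10, adjusted p = 5.1e-07). Igf1, the related ligand, was at 1.77, 1.49 and 1.70 CPM in homozygous KO against 3.66, 3.92, 4.52 and 4.38 CPM in wild type (-1.32, SE 0.19, adjusted p = 6.0e-04). The direction of Igf1 was therefore opposite to that of the Igf2 values.

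Among the secreted IGF-binding proteins, Igfbp2, Igfbp3 and Igfbp5 were called higher and Igfbp4 lower. Igfbp5 was at 1.13, 2.94 and 1.61 CPM in homozygous KO and 0.29 to 0.67 CPM in wild type (1.78, SE 0.44, adjusted p = 0.0124). Igfbp3 was at 0.72, 1.47 and 1.39 CPM in homozygous KO and 0.12 to 0.79 CPM in wild type (1.40, SE 0.47, adjusted p = 0.0488). Igfbp2 had 20, 44 and 69 reads in homozygous KO and 2, 5, 14 and 0 in wild type (2.45, SE 0.80, adjusted p = 0.0429). In CPM it was at 0.17 to 0.76 in homozygous KO and 0 to 0.16 in wild type. Igfbp2 passed the filter on low counts only through homozygous KO. The calls of Igfbp2 and Igfbp3 were each lost in 11 of 19 other settings, and those of Igfbp5 in 3. Both Igfbp2 and Igfbp3 were lost on leaving out homozygous KO 2 or 3, heterozygous KO 2 or 3, or wild type 1 or 4, Igfbp2 also without wild type 2 and Igfbp3 also without wild type 3. Igfbp4 was at 29.1, 7.82 and 4.47 CPM in homozygous KO against 44.3, 47.3, 71.6 and 38.9 CPM in wild type (-1.87, SE 0.51, adjusted p = 0.0195). Without homozygous KO 2, the adjusted p was 0.06 for Igfbp5 and 0.072 for Igfbp4.

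Of the mRNA-binding proteins named for Igf2, Igf2bp1 was at 3.07, 0.34 and 0.52 CPM in homozygous KO, 0.04 to 0.08 CPM in heterozygous KO and 0.02, 0.10, 0.46 and 0.07 CPM in wild type. Homozygous KO 1 carried the difference of 2.85 (SE 0.86, adjusted p = 0.0311), which was 1.27 (adjusted p = 0.265) without it. The call was also lost on leaving out wild type 1, 2 or 4. Igf2bp1 too passed the filter on low counts only through homozygous KO. Igf2bp3 was at 120.2, 121 and 114 CPM in homozygous KO against 91.4 to 97.0 CPM in wild type (0.33, SE 0.05, adjusted p = 0.00103). Igf1 and Igf2bp3 were outside the rule for named genes and were added after their values were seen.

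**Figure D4:**
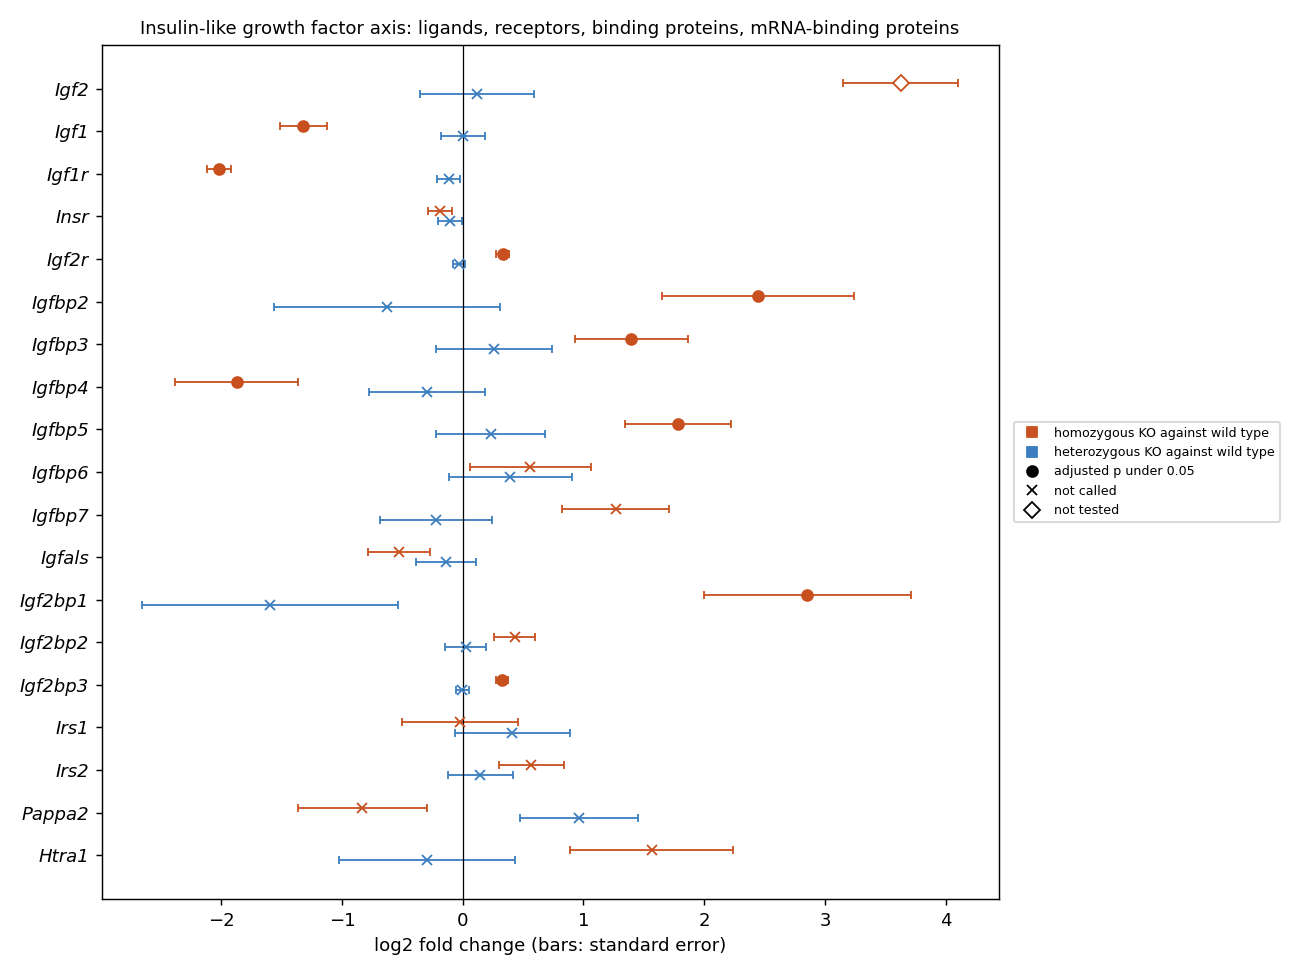
Log2 fold change (x axis, bars are standard errors) of Igf2, Igf2r and the 17 tested genes of the IGF axis (y axis) in homozygous KO and heterozygous KO against wild type; circles passed at adjusted p under 0.05, crosses did not, and the diamond was not tested. Igf1r at -2.02 and Igfbp4 at -1.87 lie lowest, and Igfbp2 at 2.45 and Igf2bp1 at 2.85 are the highest of the circles. Igfbp2 and Igf2bp1 passed the filter on low counts only through homozygous KO, so their circles are no support for a rise.

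Of 41 other imprinted genes listed, 26 passed the filter, and 4 were called in homozygous KO against wild type, 1 higher and 3 lower, with a median log2 fold change of -0.13. Of all features, a larger share of 25.8% was called, and the median was -0.01. Peg12 was at 0.84, 0.82 and 0.95 CPM in homozygous KO, 0.27, 0.14 and 0.25 CPM in heterozygous KO and 0.12, 0.313, 0.315 and 0.35 CPM in wild type (1.62, SE 0.35, adjusted p = 0.00615). Slc22a3, an organic cation transporter gene beside Igf2r, was at 4.32, 5.44 and 4.22 CPM in homozygous KO against 10.02, 9.96, 9.41 and 6.46 CPM in wild type (-0.94, SE 0.19, adjusted p = 0.00400). Ddc, the gene of aromatic L-amino acid decarboxylase beside Grb10, was at 0.85, 0.82 and 1.47 CPM against 2.19, 2.14, 2.30 and 1.74 CPM (0.501-fold, adjusted p = 0.0146). Gatm, an enzyme of creatine synthesis, was at 0.76, 1.05 and 0.91 CPM against 1.52, 1.13, 1.74 and 1.39 CPM (-0.68, SE 0.22, adjusted p = 0.0433), a call lost in 13 of 19 other settings, including the omission of any library but heterozygous KO 1 or wild type 2. Without homozygous KO 2 the adjusted p of Ddc was 0.0584, and the number of calls was 2. In heterozygous KO against wild type 0 of 26 were called by edgeR and 0 by DESeq2, with 1 at an unadjusted p under 0.05. Between homozygous and heterozygous KO 3 of 26 were called: Peg12 higher, Slc22a3 and Trappc9 lower. In that comparison a larger share of all features, 17.1%, was called.

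The genes whose pattern over the 10 libraries was most like that of Igf2, by the root mean square difference of centred log2 CPM, were Krt5 (0.566), Zmat3 (0.581), Neo1 (0.593), Enah (0.599), Dglucy (0.608), the feature Nav1.1.n (0.608), Phlda3 (0.620) and Epha2 (0.638). They were chosen on the same libraries, so their values carry no test. Krt5, a keratin of medullary thymic epithelium, was at 8.44, 13.5 and 31.3 CPM in homozygous KO, 2.36 to 3.74 CPM in heterozygous KO and 1.84 to 3.65 CPM in wild type. Of the 9 thymic epithelial markers tested, 5 had a higher and 4 a lower estimate in homozygous KO than in wild type. Among the lower ones, Aire was at 0.21 to 0.42 CPM against 0.84 to 2.12 CPM. Cldn4 was at 4.15 to 4.59 CPM in homozygous KO against 21.8 to 25.3 CPM in wild type. Zmat3 was at 199.8, 271 and 239 CPM in homozygous KO, 30.2 to 32.1 CPM in heterozygous KO and 23.7 to 28.6 CPM in wild type. Of the 6 members ranked, H19 was nearest to Igf2, at 50 of 13464 genes (0.936), followed by Grb10 at 369 and Igf2r at 1072. Mest ranked 10144, Cdkn1c 12088 and Plagl1 13317. Peg3, Dlk1 and Meg3 were below the average level required and have no rank.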

How the data were processed

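RNA-seq read counts per gene were analysed for 10 mouse thymus libraries, grouped by their GEO labels. The counts were deposited as raw whole numbers in a single table; the submitters' processing notes name CASAVA, STAR 2.4.1d, HTSeq 0.6.1p1 and NCBIM37/mm9. The annotation release, strand setting and handling of shared reads are not given in the sources used here. Members and gene lists were chosen with earlier results of these data known. Ensembl identifiers were matched to GRCm38 symbols for 92.4% of tested features, and coordinates are GRCm38; 1.74% to 2.29% of counts lay in 908 features without an Ensembl identifier.

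Counts were fitted in edgeR 4.0.16 (R 4.3.3) over all 10 libraries with a term for the 3 groups, trimmed mean (TMM) scaling, filterByExpr and the quasi-likelihood test. P-values were adjusted by Benjamini-Hochberg over 19511 features and called under 0.05, two-sided; the standard error is the log2 fold change divided by the root of F. CPM are TMM scaled, and CPM per kb uses merged GRCm38 exon length. The method was tested on simulated data. No test uses lists. Genes were named by this rule: all members; of the other imprinted and IGF axis genes, up to 6 per list called in homozygous KO against wild type by size and every gene called in heterozygous KO; the 8 genes most like Igf2 with average log2 CPM of at least 0; and Usp7.

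Alternatives were DESeq2 1.42.0, its size factors, library totals, no filter, a replicate block, sample-number ranges and sex (Xist above 100 CPM) as terms, wild types with 1 or 2 "wt" words in the sample name, and leaving out each library. Replicate numbers did not pair libraries: same-number pairs correlated at -0.10 to 0.23, with 3 of 9 over 0.1. No 2 libraries of a group agreed within sampling noise (chi-square per degree of freedom 13.1 to 114). Nothing in the labels beyond the sample numbers says that libraries came from separate animals, so p-values measure the spread between libraries.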

Additional observations from a re-analysis of the deposited data

Results flagged for a closer look

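H19 was at 65.7 CPM in wild type 4, apart from the other 3 wild types, the nearest of which was at 100.03 CPM. The gap was 0.923 of the group's range, above Dixon's critical value for 4 samples. The 10 members were examined in this way in the wild types, and chance marks about 1 in 20 groups. Without wild type 4, the difference of H19 between homozygous KO and wild type was still past the threshold.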

How the results depend on the processing

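Of 9 members, 5 or 6 were called in homozygous KO against wild type and 4 or 5 against heterozygous KO under the alternatives tried, and 0 of 10 were called in heterozygous KO against wild type. Scaling by library totals moved the median of all features in homozygous KO against wild type from -0.01 to -0.11 on the log2 scale and left 29% of calls higher, against 48.6% with TMM, but no called member changed direction. With wild types 3 and 4 alone, 1 other imprinted gene and 3 IGF axis genes were called in homozygous KO against wild type, and with wild types 1 and 2 alone 4 IGF axis genes. Against heterozygous KO, library totals gave 5 other imprinted genes. Leaving out a library gave 2 to 5 other imprinted genes against wild type (2 without homozygous KO 2) and 1 to 3 against heterozygous KO (1 without homozygous KO 3 or heterozygous KO 1). It gave 4 to 9 IGF axis genes against wild type (4 without homozygous KO 2, 5 without wild type 1) and 3 to 8 against heterozygous KO (3 without heterozygous KO 2 or 3, 4 without homozygous KO 2 or 3). The cause was not tested. The replicate block, on replicates 1 to 3, gave 6, 0 and 5 called members and changed the call of Gatm (adjusted p = 0.075) and Igf2bp1 (adjusted p = 0.134) only among the named genes.

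The sign turned only for differences that no fit called. In heterozygous KO against wild type, Igf2 was at -0.26 and Dlk1 at -0.078 with sample-number range as a term, H19 at 0.076 with sex as a term, H19 at 0.056 and Dlk1 at -0.21 with wild types 3 and 4 alone, Mest at 0.068 with wild types 1 and 2 alone, and Plagl1 at 0.12 and Mest at 0.11 under the replicate block. Mest in homozygous KO against wild type was at 0.015 under the replicate block. Leaving out a library, the values against wild type in heterozygous KO ran from -0.026 to 0.37 for Igf2, -0.22 to 0.012 for H19, -0.26 to 0.28 for Dlk1, -0.22 to 0.14 for Plagl1 and -0.26 to 0.12 for Mest. For Mest in homozygous KO they ran from -0.27 to 0.012 against wild type and from -0.28 to 0.080 against heterozygous KO. Dlk1 rests on 10 to 49 reads per library and Meg3 on 0 to 21.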
